A study of Mus musculus with 2 samples.

Results

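The genes described here carry glucose into the muscle fibre, break it down to lactate and store it as glycogen. The set holds 38 genes, chosen by name, out of 34740 gene names on the array. All 38 had at least 1 probe among the non-control probes of both arrays, 61 probes in all. A member was represented by the probe with the brightest signal, and its other probes are given beside it. A gene is called measured below if the scanner software placed its brightest probe well above background in both samples, as it did for 37 of the 38 members and for 19668 genes in all. The exception was Fbp1.

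Both groups were CD2F1/Slc mice, male and 11 weeks old, and each gave 1 array of skeletal muscle RNA. Mice of the C26 group carried a tumour grown from 1000000 C26 cells, a mouse colon carcinoma line, put under the skin of the flank in 100 µL of PBS, and the control group received PBS alone. The graft is a model of cancer cachexia, the wasting of muscle and fat in some cancers. The labels name no genetic change, and they state neither which muscle was taken, nor how long after grafting, nor whether animals were pooled. With 1 array per group no test was possible, so no value below has a p-value, and the fold sizes of 2 and 1.5 serve only to sort genes. The error given with a log2 ratio is the scanner software's error of the spot signals, not the spread between mice. All 8 defining markers of skeletal muscle on the array, among them Acta1 and Ckm, were well above background in both samples.

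Muscle takes up glucose through carriers of the SLC2A (GLUT) family, of which GLUT4 (Slc2a4) is the one moved to the surface by insulin and contraction. Hexokinase traps the sugar as glucose 6-phosphate, which goes either to glycogen or down glycolysis. Phosphofructokinase is the main point of control on the glycolytic route. Its strongest activator, fructose 2,6-bisphosphate, is made and removed by the bifunctional enzymes of the Pfkfb family. Fructose bisphosphatase runs the opposite step, and fast fibres export the lactate they form through MCT4 (Slc16a3).

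Most of these genes stood close to the same level in both samples. The measured members that stood apart were Pfkfb3, lower in the C26 sample, and Slc2a3 and Fbp2, higher in the C26 sample. Fbp1, not well above background in the control sample, was also brighter in the C26 sample. The probe sequences behind these values are shown because each of them rests on 1 spot per array, and because the probes of Pfkfb3 and Slc16a3 did not give the same ratio. Each is written 5′ to 3′, in full where the probe spans more of the genome than its own length and otherwise as its first 30 of 60 bases. Capitals mark the stretch of 23 bases that the shown parts of both Slc16a3 probes share.
Slc2a3 (chr6:122678075-122678134, mm9, minus strand): gtgcttacacatttcagaccctttaggcaa
Pfkfb3, brighter probe (chr2:11393453-11393512, mm9, minus strand): tcctttcagacatctgtgtagtttgcagtt
Pfkfb3, dimmer probe (chr2:11404189-11405602, mm9, minus strand): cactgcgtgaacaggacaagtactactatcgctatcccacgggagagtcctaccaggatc
Fbp1 (chr13:62966175-62966234, mm9, minus strand): acagcttaatgctttgcaatgcccaaggtc
Fbp2 (chr13:62950852-62955367, mm9, minus strand): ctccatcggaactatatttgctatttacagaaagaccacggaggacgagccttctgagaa
Slc16a3, brighter probe (chr11:120820030-120820089, mm9, plus strand): GTGGTCTGTTCACCCTGAGTCCCacccttt
Slc16a3, other probe (chr11:120820023-120820082, mm9, plus strand): ctgggcaGTGGTCTGTTCACCCTGAGTCCC

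Over the 37 measured members, 1 was at least 2-fold higher in the C26 sample, against 1.25% of all measured genes, and 1 was at least 2-fold lower, against 1.15%. At 1.5-fold the counts were 2 higher, against 4.37% of all genes, and 1 lower, against 4.83%. Counts this small are no result about the set as a whole. The log2 ratios ran from -1.47 to 1.05 and 34 members lay within 1.5-fold. Of the 37, 23 lay within their own scanner error of 0 and 33 within 2 such errors, which had a median of 0.20. The median log2 ratio of the members was 6.2e-05, beside 0.04 for all measured genes, and 18 of 37 were below 0, beside 43.5% of all genes. That number changed with the scaling and was 26 with loess, beside 51.9% of all genes.

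**Figure D1:**
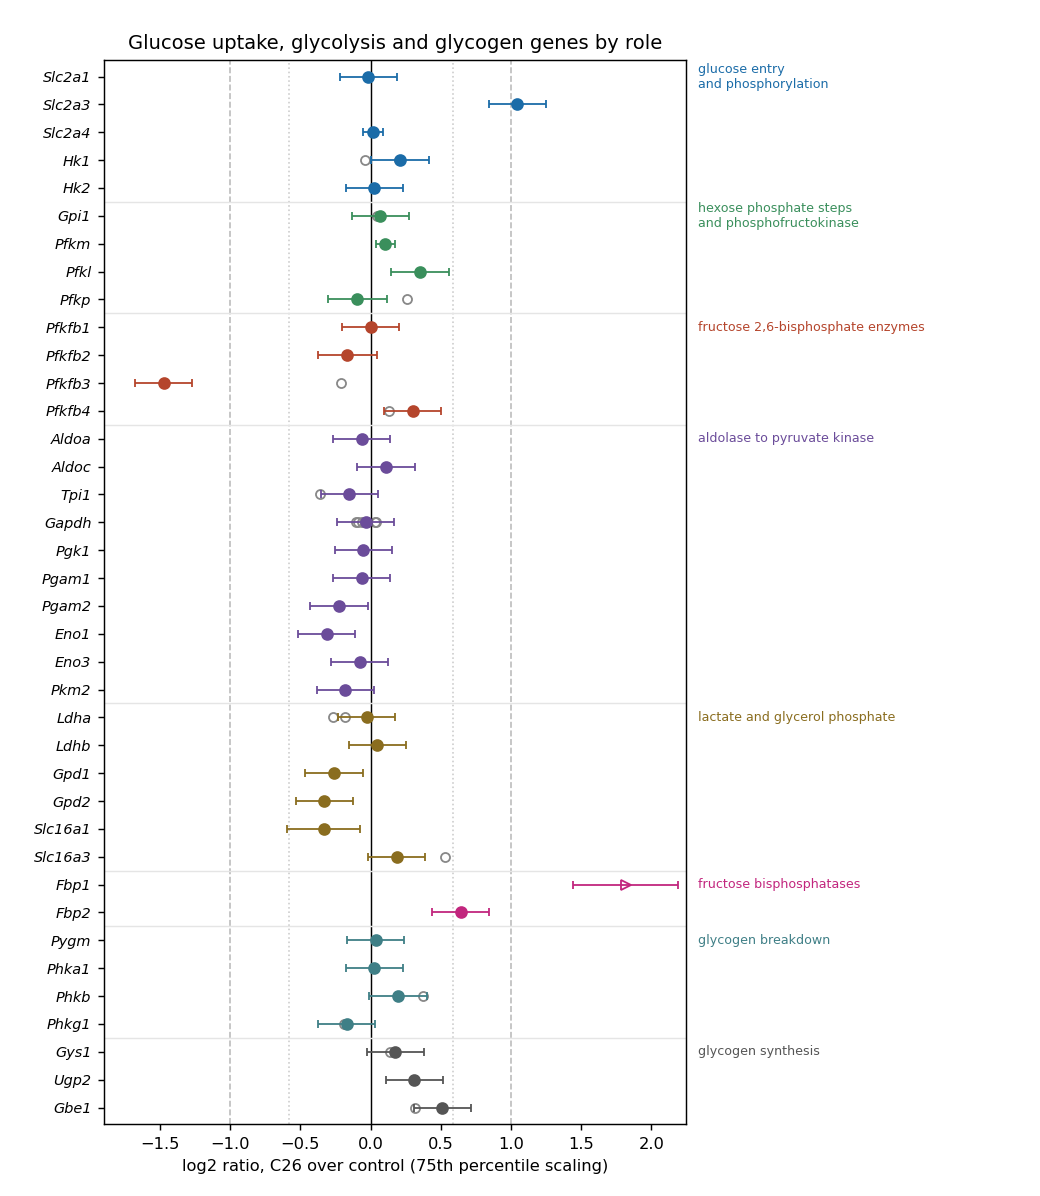
The log2 ratio of C26 over control is plotted for each of the 38 genes, grouped by role, with filled points for the brightest probe, bars for the scanner error and open circles for other probes; dotted and dashed lines mark 1.5-fold and 2-fold. Pfkfb3 at -1.47 and Slc2a3 at 1.05 lie beyond the 2-fold lines, and Fbp2 lies between the lines at 0.64. The open triangle marks Fbp1 at 1.82, which was not well above background in the control sample.

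Among the glucose carriers and hexokinases, only Slc2a3 was past 1.5-fold. Slc2a3 (GLUT3), a high-affinity carrier best known from neurons and blood cells, had a processed signal of 307 in the control sample and 602 in the C26 sample. After scaling this was 2.06-fold higher in C26, a log2 ratio of 1.05 (error 0.21). It was below 2-fold at 0.84 with normexp background correction and at 0.99 with the 75th percentile taken over probes above background, and it had 1 probe of 1 spot. Slc2a4 (GLUT4) was read by 9 spots in control and 8 in C26 and had signals of 57117 and 54862, a log2 ratio of 0.01 (error 0.07). Slc2a1 (GLUT1), the basal carrier, had signals of 807 and 758 and a ratio of -0.02. Neither differed by more than the scanner error with this scaling, but Slc2a4 stood at -0.12 with loess, with quantile normalization and in the deposited table. Hk2, the insulin-regulated hexokinase of muscle, had signals of 8191 and 7925 and a log2 ratio of 0.02 (error 0.20), which is below 0 under the other scalings. Hk1 stood at 0.21 with its brightest probe, and at -0.04 and 0.20 with the others.

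Markers of other cell types are given beside the carriers, since Slc2a3 and Slc2a1 are also made outside the fibre. Of 10 neutrophil markers on the array, 6 were measured, 3 above 0 and 3 below, and S100a8 and S100a9 stood at 2.46 and 2.35; Ltf, Ngp and Mmp8 were not well above background in either sample. Their summed scaled signal, in multiples of the array's 75th percentile, was 131 in control and 115 in C26. Csf3r alone gave 126 and 105 of these sums, and without it they were 5.22 in control and 10.1 in C26, so the direction of the neutrophil sum rests on that gene. Of 11 macrophage markers 10 were measured and 9 stood below 0, with a summed signal of 32.0 in control and 23.5 in C26. Of 10 erythroid markers 6 were measured and all stood above 0, with sums of 1365 and 2756, while Epb42 and Klf1 were not well above background in either sample. The brightest probes of all 12 endothelial markers stood above 0, with sums of 93.7 and 126, or 53.7 and 70.1 without Egfl7. Kdr at 0.01 and Emcn and Cdh5 at 0.04 lay within the scanner error, and a second Kdr probe gave -0.63. Of all measured genes, 56.5% stood above 0 and 43.5% below. All 8 fibroblast markers stood below 0, with sums of 614 and 407, or 204 and 79.0 without Dcn, the gene that gave most of the sum. Of 8 markers of carcinoma epithelium 5 were measured, with sums of 3.07 and 4.03, while Epcam, Krt8 and Krt20 were not well above background in either sample. Their part in the Slc2a3 value was not tested, and more cells of a type cannot be told apart from more RNA per cell in whole muscle.

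**Figure D2:**
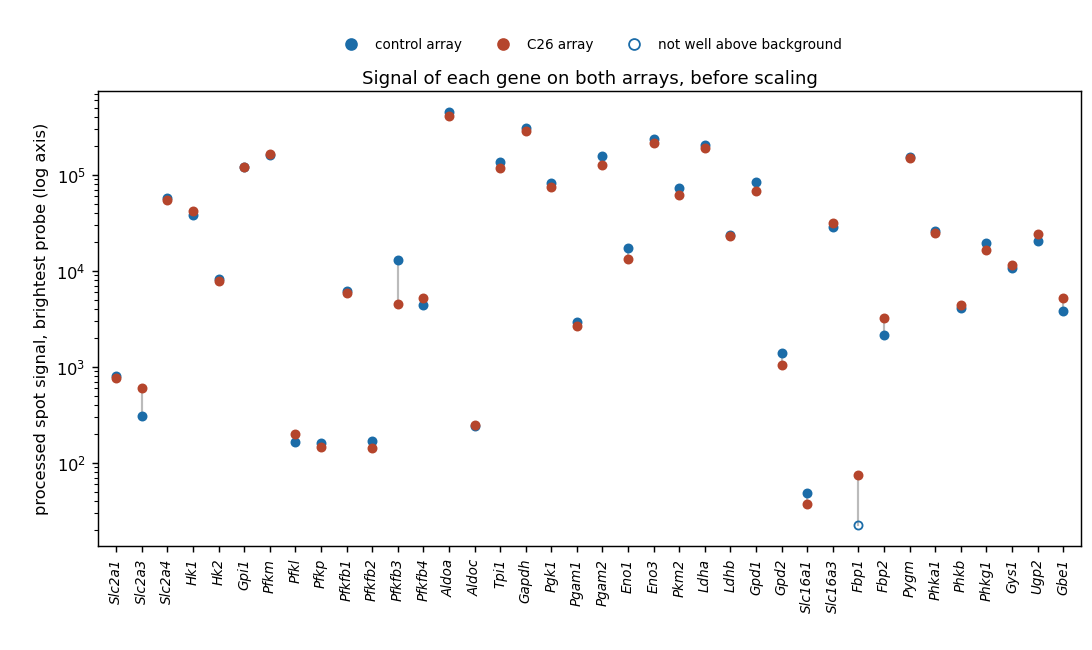
The processed spot signal of each gene's brightest probe, before scaling and on a log axis, is plotted for the control array and the C26 array, joined by a line for each gene. The points nearly coincide for most genes and separate for Slc2a3, Pfkfb3, Fbp1 and Fbp2; the Fbp1 signal of 22.4 in the control sample is open because it was not well above background.

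The phosphofructokinase step showed no member past 1.5-fold. Pfkm, the muscle subunit of phosphofructokinase, was read by 10 spots per array at signals of 162559 and 166327, and its log2 ratio was 0.11 (error 0.06), or -0.05 with loess. Pfkl, the liver-type subunit, had signals of 165 and 201 and stood at 0.35 (error 0.21). Pfkp, the platelet-type subunit, stood at -0.09 with its brighter probe and 0.26 with the dimmer one, so its sign depended on the probe. Gpi1, which turns glucose 6-phosphate into fructose 6-phosphate, stood between 0.05 and 0.07 with 3 overlapping probes.

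Pfkfb3, an isoform with high kinase over phosphatase activity, had the lowest log2 ratio of the set. Its brighter probe gave signals of 13117 in control and 4488 in C26, 2.78-fold lower in C26, a log2 ratio of -1.47 (error 0.20). The second probe gave 287 and 236, a log2 ratio of -0.21, which is about the size of the scanner error. The array file lists the brighter probe under transcript variant 2 and the dimmer one under variant 6. Each probe carries 4 listed accessions, and 0 of them are shared. The other probes shown above also list 4, so these lists may be incomplete. Whether the Pfkfb3 probes read different transcripts was not tested. The mean of both probes was -0.84, which is lower in C26 by less than 2-fold. Of the other isoforms of this family, Pfkfb4 stood at 0.30 and 0.13 with its 2 probes, Pfkfb2 at -0.17 with signals of 168 and 143, and Pfkfb1, the muscle and liver isoform, at 6.2e-05 with signals of 6218 and 5913. The other isoforms therefore lay within 1.5-fold while the brighter Pfkfb3 probe did not.

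Of the 2 forms of fructose bisphosphatase, the enzyme that opposes phosphofructokinase, only Fbp2 was measured, and it stood higher in C26. Fbp2, the muscle form, had signals of 2169 in control and 3217 in C26, 1.56-fold higher, a log2 ratio of 0.64 (error 0.20). It lay between 0.55 and 0.64 under the alternatives, so it did not stay past 1.5-fold in all of them. Fbp1, the liver form, had a signal of 22.4 in control, where it was not well above background, and 74.95 in C26. After scaling this was 3.53-fold higher in C26, a log2 ratio of 1.82 (error 0.37). It is an estimate and not a lower bound, since it was computed against Fbp1's own dim control signal. That control signal was above the lowest signal well above background of 18.5. Both signals were near the floor of the array, and the value rests on 1 spot in each sample.

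From aldolase to pyruvate kinase, 9 of 10 members stood slightly lower in C26, beside 43.5% of all measured genes, and none reached 1.5-fold. Aldoa, the muscle aldolase, had signals of 454690 and 413547 and a log2 ratio of -0.06, and Aldoc, the brain-type aldolase, stood at 0.11 as the 1 member above 0. Tpi1, triose phosphate isomerase, stood at -0.15 with signals of 136441 and 116734, and at -0.36 with its second probe. Of the phosphoglycerate mutases, the muscle form Pgam2 stood at -0.23 with signals of 156848 and 127573, and Pgam1 at -0.06. Of the enolases, Eno1 stood at -0.31, with signals of 17176 and 13150, and the muscle form Eno3 at -0.08, with 235409 and 212160. Pkm2, the pyruvate kinase gene listed as Pkm in newer annotation, stood at -0.18 with signals of 73637 and 61828. The median of these 10 was -0.07, which is within the scanner error of a single gene, and 8 or 9 of them were below 0 under every scaling alternative.

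Gapdh and Pgk1 call for care over what their probes read. Gapdh, often used as a reference gene, had 8 probes with log2 ratios between -0.10 and 0.04 and a standard deviation of 0.05 between probes. The brightest, at -0.04, was placed on chromosome 7 and the next on chromosome 8 of mm9, while the other 6 lay on chromosome 6 with the gene. Pgk1, phosphoglycerate kinase, stood at -0.05 with 1 probe, placed on chromosome 3 although the gene is on chromosome X. That probe shares a run of 53 bases with a probe listed as Gm5537, and the Eno1 probe shares 53 bases with one listed as Gm5506. Transcripts of such near-identical copies may not be told apart by these probes. Without the 3 probes placed off the gene's chromosome, which also leaves out Pgk1, the median of the members was 0.01 and the counts at 2-fold and 1.5-fold were those given above.

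Lactate dehydrogenases hardly differed between the samples. Ldha, the muscle form, had signals of 203662 and 189816 and a log2 ratio of -0.03, with -0.27 and -0.18 from its other probes. Ldhb, the heart form, stood at 0.05 with signals of 23600 and 23174. Slc16a1 (MCT1), the carrier that takes up lactate, was dim, at 48.9 and 36.8, and stood at -0.33 (error 0.26). Slc16a3 (MCT4), the lactate exporter of fast fibres, gave signals of 28815 and 31148 with its brighter probe, a log2 ratio of 0.18. The other Slc16a3 probe gave signals of 22944 and 31482, a log2 ratio of 0.53, or 1.44-fold.

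These Slc16a3 probes lie 7 bases apart and share 53 of 60 bases, so the difference of 0.34 between their ratios measures how far probes of almost the same sequence can part. Across the arrays, 127 pairs of measured probes of 1 gene lay at most 20 bases apart with control signals of at least 1000. Their ratios differed by 0.04 in the median and by 0.14 at the 95th percentile. Slc16a3 thus lay beyond that percentile. The overlapping probes of Gpi1, Phkg1 and Gapdh differed by at most 0.06.

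The glycerol phosphate shuttle, which passes the reducing power of glycolysis to mitochondria, stood slightly lower in C26 in both of its enzymes. Gpd1, the cytosolic enzyme, had signals of 84545 and 67079 and a log2 ratio of -0.26, and Gpd2, the mitochondrial one, had 1387 and 1049 and stood at -0.33. Both are larger than the scanner error of 0.20 and below 1.5-fold. Gpd1 is also abundant in fat cells, and 7 of 9 adipocyte markers stood above 0, beside 56.5% of all measured genes. Their summed scaled signals were 194 in control and 263 in C26. The part of these markers in the Gpd1 value was not tested.

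Glycogen breakdown genes lay near a ratio of 1, and the signs of Pygm and Phka1 changed with the scaling. Pygm, the muscle glycogen phosphorylase whose loss causes McArdle disease, had signals of 152572 and 148758 and a log2 ratio of 0.04. Of the subunits of phosphorylase kinase, which activates it, Phka1 stood at 0.03, Phkb at 0.19 and 0.37 with its probes, and Phkg1 at -0.17 and -0.19 with its probes.

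All 3 glycogen synthesis members stood higher in C26, each below 1.5-fold. Gbe1, the branching enzyme, had signals of 3814 and 5171, 1.43-fold higher, a log2 ratio of 0.51 (error 0.20), and its dimmer probe gave 0.31. Ugp2, which makes UDP-glucose, had signals of 20519 and 24200 and stood at 0.31 with each of its 2 probes. Gys1, muscle glycogen synthase, stood at 0.18 with signals of 10684 and 11485, and at 0.14 with its second probe, within the scanner error. The signs of all 3 were the same in all 10 alternatives, but the sizes were not. Ugp2 stood at 0.16 with quantile normalization and in the deposited table and at 0.19 with loess, each within the scanner error. Gys1 was as low as 0.06, and Gbe1 lay between 0.41 and 0.51.

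Among other glycogen genes, listed apart from the set, 19 of 23 measured genes stood above 0, beside 56.5% of all measured genes. Their median was 0.20, beside 0.04 for all genes. Ppp1r3c (protein targeting to glycogen), which brings protein phosphatase to glycogen and favours its synthesis, had signals of 12786 in control and 42598 in C26. Its log2 ratio of 1.81 (error 0.20) was 3.50-fold higher in C26 and was 1.67 or above under every alternative. Ppp1r3d, a related targeting subunit, stood at 0.86 with signals of 1053 and 1820. Ppp1r3a and Ppp1r3b, at 0.15 and 0.20, lay within the scanner error. Gyg, glycogenin, the protein on which glycogen is started, stood at 0.39, and the lowest was Pygb, the brain-type phosphorylase, at -0.34.

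Other genes of glucose and lactate transport lay on both sides of 0, with 13 of 21 measured genes below, beside 43.5% of all measured genes. Their median of -0.09 lay within the scanner error of a single gene. Tbc1d1, which with Tbc1d4 holds GLUT4 vesicles back until it is phosphorylated, had signals of 2486 in control and 9144 in C26. The log2 ratio of 1.95 (error 0.20) was 3.87-fold higher in C26, and a second probe gave 1.81. Tbc1d4 stood at 0.72 and 0.86 with its probes. Arrdc4 stood at 0.74 with its brighter probe and 0.14 with another, and the related Txnip, which restrains glucose uptake, at 0.23. On the lower side, the carriers Slc2a10 and Slc2a6 stood at -0.84, from signals of 71.5 and 38.1, and at -0.75, from 56.2 and 31.7. Slc2a2, Slc2a5 and Slc2a9 were not well above background in either sample.

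Of the other glycolytic isozymes and regulators, 10 of 13 measured genes stood above 0, beside 56.5% of all measured genes. Their median of 0.10, beside 0.04 for all genes, lay within the scanner error of a single gene. Hk3, a hexokinase best known from myeloid cells, had signals of 63.8 and 17.4 and stood at -1.81 (error 0.34). Of the markers given above, 9 of 10 measured macrophage markers stood below 0. The 6 measured neutrophil markers lay 3 above and 3 below 0, with S100a8 at 2.46 and S100a9 at 2.35. Their part in the Hk3 value was not tested. Under normexp correction, Hk3 stood at -0.58, so its size depends on how background is removed. Pklr, the liver and red cell pyruvate kinase, was not well above background in either sample.

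**Figure D3:**
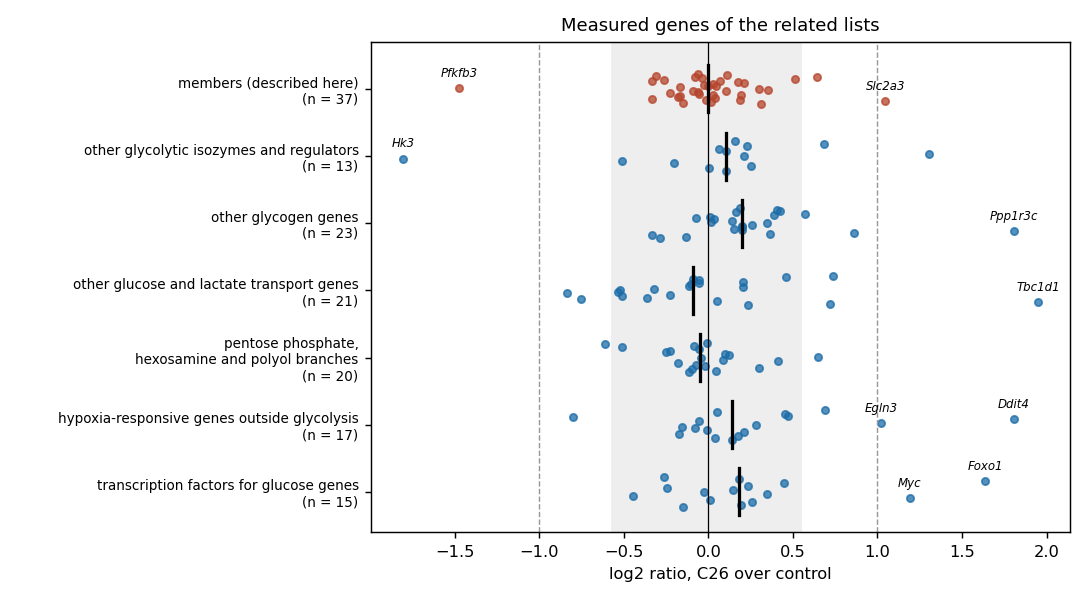
Each point is the log2 ratio of C26 over control of 1 measured gene, the black bar is the median of its list, the grey band spans the 5th to 95th percentile of all measured genes (-0.57 to 0.55) and dashed lines mark 2-fold. The 37 members in red crowd around 0 apart from Pfkfb3 and Slc2a3, and genes past 2-fold in the other lists include Tbc1d1, Ppp1r3c and Hk3.

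Fibre type is a further point of comparison, since fast fibres rely more on glycolysis. Of 12 fast fibre markers 6 stood above 0, with a median of 0.01 and summed scaled signals of 9523 in control and 9715 in C26. Of 12 slow fibre markers 11 stood above 0, beside 56.5% of all measured genes, with a median of 0.25 and sums of 1162 and 1321. Among these, Myh7, Tnni1, Myl3 and Myl2 lay within the scanner error. A second Myl2 probe gave -0.52, and 1 probe of Tpm3 gave -0.07. The part of fibre type in the member values was not tested.

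Brightness was a further point, chosen after the values were seen. Of the members, 21 had signals of at least 10000 in both samples; 11 of them stood below 0, with a median of -0.03 and a 5th to 95th percentile range of -0.26 to 0.21. Over all 1772 genes that bright, 29.1% stood below 0 and the median was 0.14. When loess took out the trend with signal, the median of the 37 members was -0.11 and that of all genes -0.01.

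Promoters of the members were read from RefSeq on GRCm38.p6, as the 250 bases before each start. Windows were found for 35 of the 38 genes, 54 in all. The letters ACGTG, the core that hypoxia-inducible factors bind, occurred on either strand in 20 of 54 windows (37.0%), against 16.6% of 32851 windows of all genes. The member windows were richer in G and C, at a median of 58.8% against 52.4%. CACGTG, which contains ACGTG on both strands, occurred in 6 of 54 windows (11.1%), against 6.02% of all. TGTTTAC, a FoxO motif, occurred in 1 of 54 (1.85%), against 3.17% of all. A match of letters is a description and not a bound site. The windows of Pfkfb3, with its 2 listed starts, and Fbp2 are shown with ACGTG on either strand in capitals; in both cases where the run reads CACGTG, the matches of the 2 strands overlap.
Pfkfb3 (chr2:11553930-11554179, GRCm38.p6, minus strand): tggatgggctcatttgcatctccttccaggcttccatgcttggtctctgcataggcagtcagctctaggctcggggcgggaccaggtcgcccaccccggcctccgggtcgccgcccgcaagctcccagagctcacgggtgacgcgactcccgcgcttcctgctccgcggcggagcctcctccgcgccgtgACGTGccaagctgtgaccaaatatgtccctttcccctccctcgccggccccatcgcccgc
Pfkfb3 (chr2:11502091-11502340, GRCm38.p6, minus strand): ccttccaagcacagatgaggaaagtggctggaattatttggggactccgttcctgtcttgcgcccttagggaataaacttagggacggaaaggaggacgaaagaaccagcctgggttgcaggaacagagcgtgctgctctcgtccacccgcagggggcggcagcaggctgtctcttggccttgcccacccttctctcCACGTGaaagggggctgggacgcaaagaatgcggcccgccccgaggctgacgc
Fbp2 (chr13:62858401-62858650, GRCm38.p6, minus strand): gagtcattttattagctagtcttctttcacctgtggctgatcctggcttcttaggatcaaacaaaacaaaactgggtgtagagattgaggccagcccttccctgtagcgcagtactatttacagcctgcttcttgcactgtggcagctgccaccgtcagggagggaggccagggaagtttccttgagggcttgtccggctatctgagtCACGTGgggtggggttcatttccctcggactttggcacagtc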

How the data were processed

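Total RNA of 1 control and 1 C26 muscle sample was labelled with Cy3 and hybridised to 1-colour Agilent arrays, per the labels. The deposited scanner files hold spot intensities from Agilent Feature Extraction 10.7.1.1, per the file headers (9.5.1.1 in the submitters' processing notes), with background subtracted and detrended within the array and probes placed on mm9. A deposited table of intensities on a linear scale, whose making no source used here states, served as an alternative. Spots flagged as outliers (110 and 91 of 59305) were left out, the log2 signals of repeated spots were averaged, and each array was scaled to its 75th percentile (signals of 262 in control and 249 in C26). Signals in the text are before scaling and log2 ratios after it. Surrogate values stood for 31.9% and 25.6% of spots, so dim signals are imprecise, and no spot was saturated.

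The members and lists were chosen with earlier results of these data known. Every member is reported, and of each other list the genes at least 1.5-fold different or the highest and lowest; Gyg, Ppp1r3a, Ppp1r3b, Txnip and Hif1a were named for their roles after their values were seen, and some genes of these lists are not reported here. Of 55680 probes, 31381 matched names of the GRCm38.p6 gene table. The steps were tested on simulated data. Alternatives were normexp (limma 3.58.1, R 4.3.3, offset 50), quantile normalization, loess (span 0.3), median scaling, the percentile over probes above background, dropping the filter on dim probes or raising it (signals at least 4 times the lowest above background), the mean over probes, the deposited table and, chosen after seeing the data, only probes placed on the gene's chromosome. Other work used Python 3.11.15.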

Additional observations from a re-analysis of the deposited data

How the results depend on the processing

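Over 10 alternatives, the count of members at least 1.5-fold lower stayed at 1, and no member past 1.5-fold changed sign. The count at least 2-fold higher was 0 with normexp, where Slc2a3 stood at 0.84, and with the 75th percentile over probes above background, where it stood at 0.99. That count was 2 when dim probes were kept, which adds Fbp1. The count at least 1.5-fold higher was 1 with that percentile, quantile normalization, loess and the deposited table, where Fbp2 dropped below 1.5-fold. The count at least 2-fold lower was 0 with the mean over probes, since the second Pfkfb3 probe is included. The median of the members lay between -0.11 and 0.01. Of the 37 members, the number below 0 ran from 17 with the mean over probes to 26 with loess. Of all genes, 43.5% and 51.9% stood below 0 in these settings. Of 368 member values under alternatives, 363 moved by less than the scanner error and 5 by more, namely Pfkfb3 (-0.84 with the mean of its probes), Pfkm (-0.05 with loess) and Slc2a4 (-0.12 with loess, quantile normalization and the deposited table). With normexp, the background share past 2-fold was 0.661% on the higher side and 0.336% on the lower. For other differences between settings the cause was not tested. No paired analysis was possible because each group has 1 array and the labels carry no shared replicate numbers. Dim signals limit Fbp1, Slc16a1 and Hk3, and the number of arrays limits every value.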

Other observations

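Genes that respond to low oxygen, other than those of glycolysis, lay mostly within 1.5-fold. Of 17 measured genes, 11 stood above 0, beside 56.5% of all measured genes, with a median log2 ratio of 0.14. At least 2-fold higher were 2 of the 17, against 1.25% of all genes. At 1.5-fold, 3 were higher, against 4.37%, and 1 was lower, against 4.83%. Such small counts are no result about the list. Ddit4, an inhibitor of mTORC1 that is also induced by glucocorticoids, stood at 1.81, Egln3, an oxygen-sensing prolyl hydroxylase, at 1.02 and 0.92 with its probes, and Adm, adrenomedullin, at 0.69. Car9, a carbonic anhydrase, stood at -0.80. Hif1a stood at -0.16 (error 0.21).

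Among transcription factors for glucose genes, Foxo1 stood at 1.64, with signals of 1652 in control and 4885 in C26 and 1.70 from a second probe, and Myc at 1.19, with signals of 113 and 245. The lowest was Mlxipl (ChREBP), the carbohydrate-responsive factor, at -0.45 with signals of 6270 and 4371; a second Mlxipl probe gave -0.20. Over the 15 measured factors the median was 0.18. In the pentose phosphate, hexosamine and polyol branches, 13 of 20 measured genes stood below 0, beside 43.5% of all measured genes. Their median of -0.05 lay within the scanner error of a single gene. Oga, which removes O-linked N-acetylglucosamine, stood at 0.65 and the reductase Akr1b8 at -0.61.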
